A study of Mus musculus with 32 samples.

Results

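The clustered protocadherins are a family of cadherin-related adhesion proteins of the cell surface, encoded side by side in alpha, beta and gamma clusters. Members were taken from the deposited expression table by their gene names alone: every row whose symbol is Pcdha, Pcdhb, Pcdhga, Pcdhgb or Pcdhgc followed by a number, together with Pcdhac1 and Pcdhac2. This gave 58 rows of 55492, with 14 in the alpha cluster, 22 in the beta cluster and 22 in the gamma cluster. The gamma rows comprise 12 of the A type, 7 of the B type and 3 of the C type, and the alpha rows include 2 of the C type. Symbol Pcdha11 stands on 2 rows, ENSMUSG00000007440 (called row 1 below), which RefSeq names Pcdha10, and ENSMUSG00000102206 (row 2).

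Polyadenylated RNA was sequenced from mouse embryonic stem cells at day 0 and from retinal organoids at days 2, 4 and 6 of differentiation, with 2 libraries for each of 16 groups. WT is the Rx:GFP stem cell line, and KO is a line with Mettl3 knocked out, the gene of the enzyme that writes m6A into RNA. The no-Dex and Dex groups both carry the Mettl3 knockout and overexpress wild-type METTL3 fused to GRBD, which the design describes as cytosolic without dexamethasone (Dex) and translocated to the nucleus with it. Dex was given at 10 µM, and the organoids of all groups were grown in medium with 0.1 µM AGN. No WT or KO group had Dex, so the move of the fusion to the nucleus and other effects of Dex cannot be told apart. The promoter that drives the fusion and the number of clones behind each line are not given in the sources used here. The labels call some stem cell samples at day 0 Dex treated, although the treatment protocol begins at 2 days. Duplicates had separate library preparations and nothing says that they were separate cultures, so the p-values measure the spread between these libraries, which may be technical. In bulk RNA, fewer cells of a type and less RNA per cell cannot be told apart.

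In the alpha and gamma clusters, a long variable exon with its own promoter encodes the whole extracellular and transmembrane part of one protein, and it is spliced to constant exons shared by the cluster, which encode the common cytoplasmic end. Beta genes lack such constant exons. Single neurons are known to use a few promoters of the A, B, alpha and beta types by a choice that involves DNA methylation, CTCF and cohesin, whereas the C-type promoters are used more uniformly. The proteins bind like with like across membranes and serve self-avoidance of neurites, and the gamma cluster is also needed for survival of neurons, including in the retina. Pcdhgc4 is the gamma member tied to neuronal survival and needs a carrier protein of the family to reach the surface.

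All 58 rows lie on the plus strand of one locus, GRCm38 chromosome 18 from 36930184 to 37841873 in the GENCODE M21 annotation, a span of 911.7 kb. The alpha cluster runs from 36930184 to 37187661, the beta cluster from 37264938 to 37524479, and the gamma cluster from 37661793 to 37841873. Each alpha member is annotated with the constant exons at 37156155 to 37156213, 37159265 to 37159353 and 37184946 to 37187657. The gamma constant exons lie at 37825021 to 37825079, 37833265 to 37833353 and 37839903 to 37841873, the last annotated with exactly these ends in 17 of 22 members. Mainly through these exons, an alpha row shares between 38.0% and 54.9% of its exon bases with other members, and a gamma row between 27.8% and 66.8%. In Pcdhga4 and Pcdhgb1, at 66.8% and 54.6%, the shared bases extend beyond the constant exons. Among the beta rows, 20 of 22 share none, and Pcdhb21 and Pcdhb22 overlap by 9.7% and 6.9% of their bases. How fragments from shared exons were divided between members is not given in the sources used here, so the levels of single alpha and gamma members are uncertain. Beta members are paralogs, and how reads that match several of them were assigned is not given either. Antisense genes overlap 13 of the 58 rows, among them Pcdhga11 over 29.0% and Pcdhgc3 over 28.4% of exon bases, and whether counting used strand is not stated.

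Values are FPKM, fragment counts scaled to the length of a gene's exons and to the size of the library. Estimated depth ran from 27780000 to 55200000 fragments per library, at which 3 fragments on Pcdhb11 are worth between 0.013 and 0.026 FPKM, so a beta member listed at 0 may still have been transcribed below that level. Pearson correlations of the duplicates across genes were between 0.9958 and 0.9976. Mettl3 itself was no lower in the libraries labelled KO, at 42.9 and 43.8 FPKM against 33.1 and 36.8 in WT at day 0, and at 37.3 and 37.9 against 35.1 and 36.3 at day 6. A gene-level value can miss a small deletion and so does not check these labels. The 8 pluripotency markers were at 1 FPKM or more in every day 0 library, and all 6 eye field markers reached that level in both WT libraries at day 6.

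Most members were close to silent. Of the 58, 45 were below 1 FPKM in every library, 12 reached a group mean of 1 FPKM, and none was at 0 throughout. A single member, Pcdhgc4, held between 43.8% and 83.0% of the summed FPKM of all members in each library, and together with Pcdhgc3 between 59.4% and 88.3%. Only 10 members passed the requirement of 1 FPKM in at least 2 of the 32 libraries and entered the test over 16276 rows: Pcdhac2, Pcdhb22, Pcdhga2, Pcdhga7, Pcdhgb6, Pcdhgb7, Pcdhga11, Pcdhga12, Pcdhgc3 and Pcdhgc4. Members that pass in this way had to be high somewhere, so counts among them describe the 10 and not the family. Pcdhac2 and Pcdhgb6 passed only through the KO libraries at day 6, Pcdhga2 only through WT at day 6, and Pcdhgb7 only through WT at day 0. Pcdhga7 also depended on WT at day 6, since its only other value above 1 FPKM was 1.05 in 1 Dex library at day 6. For all of these members the p-values of comparisons that involve that group are descriptive, since the filter used the same values. Pcdhga12 passed through its day 0 libraries and Pcdhb22 through day 6 libraries, so their tests of day 6 against day 0 are descriptive too. Tests were limma's, on log2(FPKM + 1) with Benjamini-Hochberg adjustment over all tested rows, and a change was called at an adjusted p under 0.05, two-sided. For the other 48 members the values are given, with the number whose 2 libraries in one group lay entirely above or below the 2 of the other, and the calls of an alternative fit of all 34331 rows above 0 in at least 1 library.

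**Figure D1:**
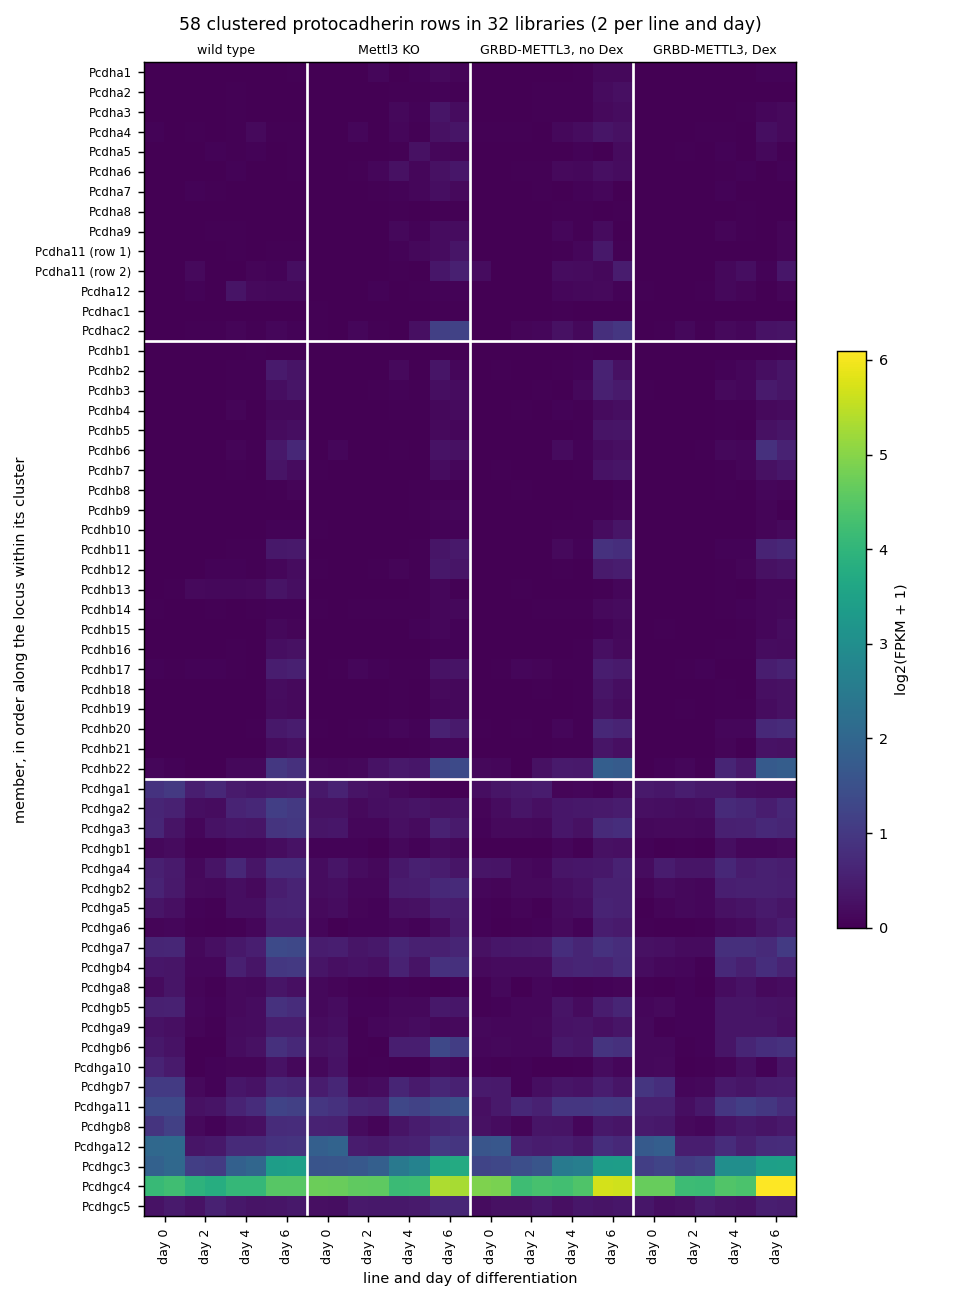
Each row is a member in its order along the locus and each column is a library, in pairs by line and day, with color giving log2(FPKM + 1). Pcdhgc4 and Pcdhgc3 stand out in all 32 libraries, the beta rows are dark until day 6, and Pcdha11 appears as row 1 and row 2.

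Pcdhgc4 was the most abundant member in every library. In WT it stood at 16.3 and 17.8 FPKM at day 0, 12.8 and 14.4 at day 2, 15.6 in both libraries at day 4, and 21.92 and 21.98 at day 6. The KO libraries held 25.0 and 25.3 FPKM at day 0, 22.9 and 23.4 at day 2, 16.9 and 17.0 at day 4, and 38.1 and 39.4 at day 6. KO was thus above WT without overlap at each of the 4 days. The gap was smallest at day 4, where limma did not call it (log2 difference 0.12, adjusted p = 0.0705). Without Dex the fusion line had 28.4 and 29.1 FPKM at day 0, 17.6 and 18.9 at day 2, 17.98 and 20.46 at day 4, and 49.0 and 51.0 at day 6. With Dex it had 24.6 in both libraries at day 0, 16.8 and 17.1 at day 2, 19.7 and 20.9 at day 4, and 66.2 and 67.4 at day 6. At day 6 the order was WT, KO, no Dex and Dex from low to high, and no neighbours in that order overlapped.

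On the log2(FPKM + 1) scale the day 6 difference of Pcdhgc4 was 0.79 ± 0.06 (SE) for KO against WT (adjusted p = 1.51e-10), 0.36 ± 0.06 for no Dex against KO (adjusted p = 1.67e-05) and 0.41 ± 0.06 for Dex against no Dex (adjusted p = 5.41e-06). Dex against WT gave 1.56 ± 0.06 (adjusted p = 1.07e-14), the largest day 6 difference among the 10 tested members in the 4 comparisons between lines. WT libraries gained 0.35 between day 0 and day 6, KO libraries 0.60, and the fusion line 0.78 in the absence and 1.41 in the presence of Dex. The rise was larger with Dex than without by 0.63 ± 0.08 (adjusted p = 1.71e-06), and larger in KO than in WT by 0.26 ± 0.08 (adjusted p = 0.00823), the latter falling to 0.20 with an adjusted p of 0.052 without WT day 0 replicate 2. Of Pcdhgc4's 5596 exon bases, 37.9% are shared with other gamma members, and one of its annotated transcripts joins a first exon of 153 bases to the constant exons. The part of shared-exon fragments in this row's level was not tested.

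Pcdhgc3, the neighbouring C-type member, was higher at day 6 than at day 0 in every line. WT held 2.69 and 3.20 FPKM at day 0, 1.08 and 1.18 at day 2, 2.68 and 3.05 at day 4, and 9.5 and 9.93 at day 6. KO held 1.98 and 2.05, then 2.18 and 2.57, then 4.50 and 5.48, and at day 6 11.6 and 12.2. Only WT therefore fell below its day 0 values at day 2 by more than 1 FPKM. Without Dex the libraries stood at 1.38 and 1.47, 1.76 and 2.07, 4.60 and 5.05, and 9.36 and 9.45 at the same days, and with Dex at 1.20 and 1.38, 1.09 and 1.24, 7.06 and 7.07, and 9.94 and 10.04.

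The increase of Pcdhgc3 from day 0 to day 6 was 1.44 ± 0.08 (SE, log2) in WT and 2.09 in KO, and 2.10 and 2.26 in the fusion line in the absence and presence of Dex, with adjusted p-values of at most 2.91e-12. The KO increase exceeded that of WT by 0.65 ± 0.12 (adjusted p = 8.47e-05). That contrast combined a lower start, by 0.39 ± 0.08 at day 0 (log2 difference -0.39, adjusted p = 0.000643), with a higher end, by 0.26 ± 0.08 at day 6 (adjusted p = 0.00809). The day 6 difference lost its call without KO day 6 replicate 2 (0.23, adjusted p = 0.0607) or without WT day 6 replicate 1 (adjusted p = 0.0563). At day 4 Dex exceeded no Dex by 0.47 ± 0.08 (adjusted p = 0.000125), while at day 6 the difference was 0.08 with an adjusted p of 0.485.

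Pcdhgc5, the third gamma C-type member, stayed between 0.16 and 0.58 FPKM in all 32 libraries. Its 2 KO libraries at day 6, at 0.56 and 0.58, were above every other library. The alternative fit without a filter called it higher in KO than in WT at day 6, by 0.28 ± 0.08 on the log2 scale (adjusted p = 0.00669).

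**Figure D2:**
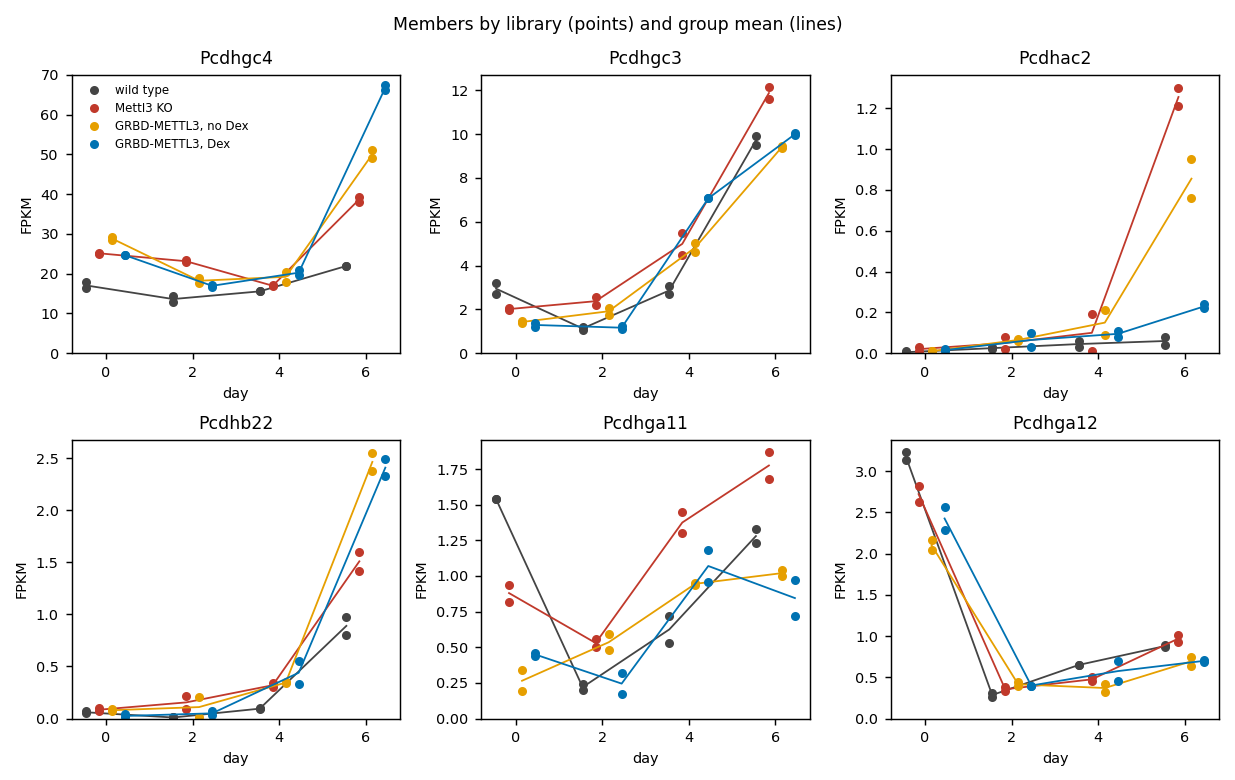
FPKM of 6 members against day, with a point for each library, a line through the group means, and colors for the 4 lines. At day 6 the Pcdhgc4 points separate into 4 levels, Pcdhac2 is high in KO and no Dex, Pcdhb22 is above 2 FPKM in both fusion groups, and Pcdhga12 is lower at day 2 than at day 0 in each line.

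The alpha cluster was nearly silent in stem cells and was highest at day 6 in the lines other than WT. Summed over its 14 members, the libraries held between 0.03 and 0.19 FPKM at day 0 in the 4 lines. At day 6 the sums were 0.30 and 0.47 in WT, 3.0 and 3.23 in KO, 2.29 and 2.33 without Dex, and 0.66 and 1.06 with Dex. These sums do not overlap between lines, and the order from low to high was WT, Dex, no Dex and KO.

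Pcdhac2, an alpha C-type member, had the highest level of the cluster in KO at day 6. It was at or below 0.03 FPKM in all 8 day 0 libraries and at 0.04 and 0.08 in WT at day 6. It reached 1.21 and 1.30 in KO, 0.76 and 0.95 without Dex, and 0.22 and 0.24 with Dex. Pcdhac2 passed the filter only through these KO libraries, so its tests that involve them are descriptive. The day 6 differences on the log2 scale were 1.09 ± 0.07 (SE) for KO against WT (adjusted p = 7.19e-11) and -0.59 ± 0.07 for Dex against no Dex (adjusted p = 1.67e-06). Its day 0 to day 6 change was larger in KO than in WT by 1.07 ± 0.10 (adjusted p = 3.05e-08) and smaller with Dex than without by 0.60 ± 0.10 (log2 difference -0.60, adjusted p = 6.75e-05). No Dex against KO gave -0.28 (adjusted p = 0.00265), a call lost without no-Dex day 6 replicate 1 (-0.21, adjusted p = 0.0526). Dex against WT gave 0.21 (adjusted p = 0.0139), lost without replicate 2 of either group (adjusted p = 0.0636 and 0.0842).

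The other alpha members moved at far lower levels. In KO at day 6 all 14 were listed above 0 in both libraries, against 6 of 14 in WT. Of the 14, 13 were higher in KO than in WT without overlap, where 22.9% of the 34331 rows above 0 in at least 1 library were so. The exception, Pcdha12, had 0.04 and 0.05 FPKM in KO and 0.09 and 0.10 in WT. Pcdha11 row 2 had the highest level among the 12 members that are not C-type, at 0.29 and 0.45 in KO and 0.04 and 0.17 in WT, and Pcdha6 stood at 0.20 and 0.29 against 0.01 and 0.02. Antisense genes overlap 44.3% of the exon bases of row 2. Without a filter 10 of 14 were called higher and 0 lower in KO at day 6, against 17.1% and 19.4% of all rows. These members share their constant exons with Pcdhac2, and how far their values are independent of it was not tested.

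At day 6 the 2 fusion groups also differed in the alpha cluster. In Dex against no Dex 5 of 14 were lower without overlap and 0 higher (19.3% of rows lower). Among them, Pcdha2 had 0.14 and 0.18 FPKM without Dex and was listed at 0 in both Dex libraries, and Pcdha6 had 0.15 and 0.18 against 0 and 0.04. The fit without a filter called 3 of the 14 lower and 0 higher, against 9.75% and 11.7% of all rows. Pcdhac1, the other alpha C-type member, did not exceed 0.03 FPKM in any library.

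**Figure D3:**
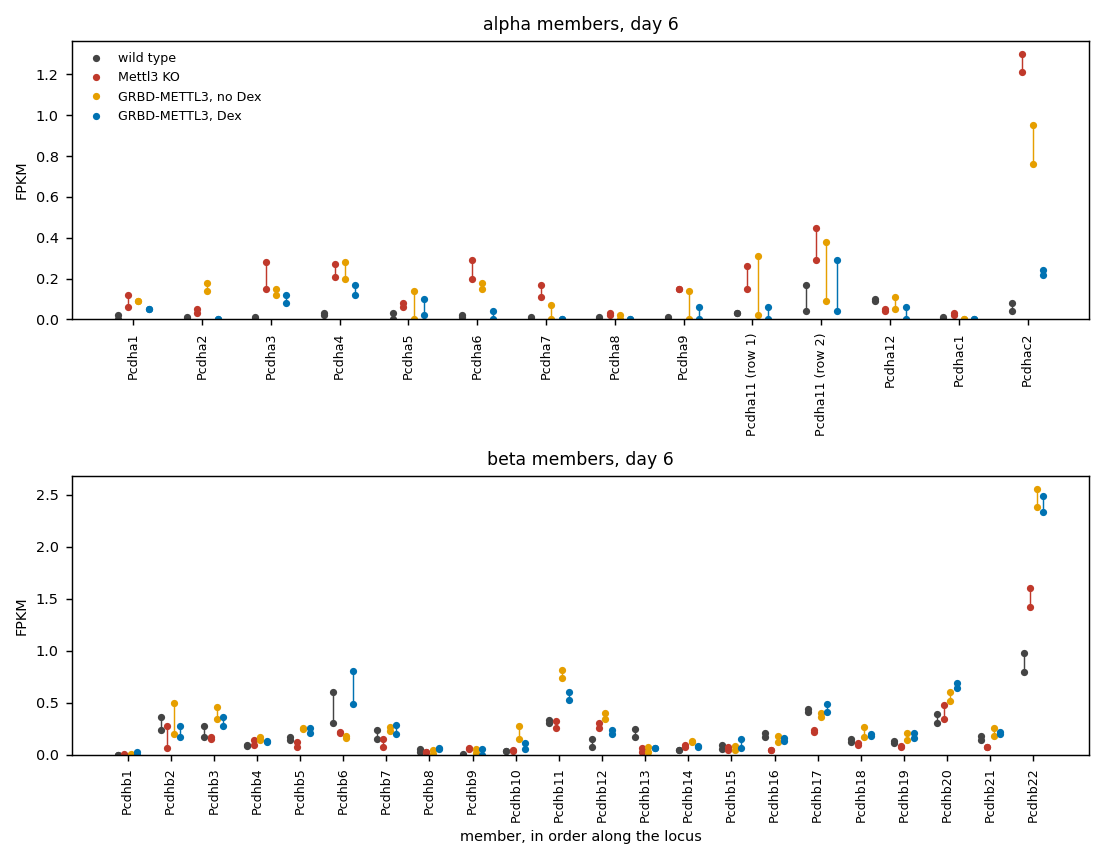
FPKM at day 6 of the 14 alpha and 22 beta members in order along the locus, with both libraries of each line as points joined by a bar. Among alpha members Pcdhac2 stands apart in KO and no Dex, and among beta members Pcdhb22 is the highest in every line.

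The beta members are separate genes whose annotated exons, other than those of Pcdhb21 and Pcdhb22, do not overlap. Their summed level was low until day 4 and severalfold higher at day 6 in all 4 lines. At day 0 the 22 members summed to between 0.06 and 0.26 FPKM per library. By day 4 the sums were between 0.47 and 1.26. At day 6 they were 4.47 and 4.66 in WT, 4.15 and 4.43 in KO, 7.13 and 7.77 without Dex, and 7.11 and 7.49 with Dex. WT and KO were below both fusion groups without overlap, whereas no Dex and Dex overlapped.

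Counted singly, 20 of 22 beta members in WT, 21 in KO, and 21 and 20 in the fusion line without and with Dex were higher at day 6 than at day 0 without overlap, and 0 were lower in any line. Of all rows above 0, 31.7%, 32.2%, 33.4% and 32.2% were higher in the same comparisons. From day 4 to day 6 the counts were 20, 20, 19 and 20 of 22, against 32%, 26.7%, 27.6% and 28% of rows. Without a filter 19, 18, 21 and 20 were called higher at day 6 than at day 0, against 26.2%, 26.8%, 28.5% and 27.4% of rows. Pcdhb1, the first of the cluster, had at most 0.03 FPKM in any library. At the estimated depth 3 fragments on it are worth 0.024 to 0.047 FPKM, so whether it rose cannot be told.

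Pcdhb22, the last gene of the cluster, was the one beta member above 1 FPKM in at least 2 libraries. At day 6 it held 0.80 and 0.98 FPKM in WT, 1.42 and 1.60 in KO, 2.38 and 2.55 without Dex, and 2.33 and 2.49 with Dex, from 0.10 or less in every day 0 library. WT, KO and the fusion groups did not overlap, and the 2 fusion groups did. Its rise from day 0 to day 6 was 0.83 ± 0.08 (SE, log2) in WT, 1.21 in KO, and 1.68 and 1.73 in the fusion line without and with Dex. KO exceeded WT at day 6 by 0.41 ± 0.08 (adjusted p = 0.000212) and no Dex exceeded KO by 0.47 ± 0.08 (adjusted p = 9.39e-05), but neither was called with a pseudocount of 0.1 (adjusted p = 0.0788 and 0.116). Dex against no Dex gave -0.02 with an adjusted p of 0.869, with an SE of 0.08. Both Pcdhb22 and its neighbour Pcdhb21 contain the overlapping stretch, and Pcdhb21 stayed at or below 0.26 FPKM.

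Beta members did not all order the lines alike at day 6. Pcdhb11 stood at 0.31 and 0.34 FPKM in WT, 0.26 and 0.33 in KO, 0.74 and 0.82 without Dex and 0.53 and 0.60 with Dex. Pcdhb6 had 0.31 and 0.60 in WT, 0.21 and 0.22 in KO, 0.16 and 0.18 without Dex and 0.49 and 0.81 with Dex. So Pcdhb11 was high in both fusion groups, while for Pcdhb6 the WT and Dex libraries lay above the KO and no-Dex libraries. Pcdhb13 was highest in WT, at 0.17 and 0.25 against 0.03 to 0.08 in the other 6 libraries. In the fit without a filter Pcdhb6 was higher with Dex than without by 0.49 ± 0.07 on the log2 scale (adjusted p = 5.7e-05), and Pcdhb11 was lower by 0.19 ± 0.03 (log2 difference -0.19, adjusted p = 0.000106). Pcdhb17 differed between KO and WT by -0.21 ± 0.02 (adjusted p = 2.62e-07), at 0.22 and 0.24 FPKM in KO against 0.41 and 0.44 in WT. All of these are below 1 FPKM, where a log2(FPKM + 1) difference understates the ratio.

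For the 22 beta members as a whole, KO against WT at day 6 gave 4 higher and 8 lower without overlap, against 22.9% and 28.6% of rows, and the fit without a filter 4 and 7, against 17.1% and 19.4%. No Dex against KO gave 14 higher and 1 lower (20.4% and 23.3% of rows). The fit without a filter called 14 higher and 0 lower there, against 10.9% and 14.3% of rows. This comparison and KO against WT share the KO libraries. In Dex against WT 11 were higher and 2 lower without overlap, against 21.8% and 27.3% of rows, and 8 and 2 were called without a filter, against 15.4% and 17.8%.

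**Figure D4:**
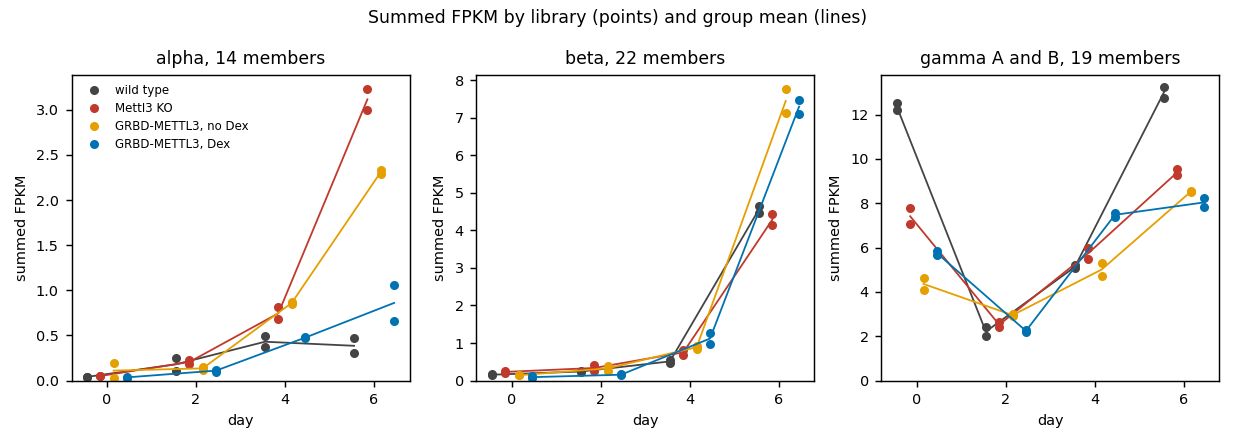
Summed FPKM of the 14 alpha, 22 beta and 19 gamma A and B members against day, with a point per library, lines through the group means, and lines of cells set slightly apart sideways. The alpha sum separates the lines at day 6, the beta sum is higher at day 6 than at day 4 in each, and the gamma A and B sum is lowest at day 2.

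The 19 gamma A and B members varied between lines in stem cells, at a sum below that of the 3 gamma C-type members in every line. Their summed level at day 0 was 12.19 and 12.54 FPKM in WT, 7.05 and 7.78 in KO, 4.10 and 4.62 without Dex, and 5.66 and 5.85 with Dex, with no overlap between lines. At day 2 the sums of all 8 libraries had drawn together between 2.02 and 3.0 FPKM. By day 6 they stood at 12.77 and 13.25 in WT, 9.27 and 9.53 in KO, 8.5 and 8.54 without Dex and 7.85 and 8.23 with Dex. The sums were thus lowest at day 2, with WT above the other lines at days 0 and 6. Without Pcdhga12 the no-Dex sum was not lower at day 2, at 2.06 and 2.46 FPKM at day 0 and 2.46 and 2.61 at day 2, whereas WT still went from 8.96 and 9.4 to 1.76 and 2.09.

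Counted by member, 19 of 19 were lower at day 2 than at day 0 without overlap in WT, 15 in KO, and 3 and 9 in the fusion line without and with Dex, against 28%, 22%, 19.7% and 25.3% of all rows. In the fusion line 6 and 1 were higher without and with Dex, against 30.8% and 23.2% of rows, and 0 were higher in WT or KO. The no-Dex counts lie near the shares of all rows, of which more were higher than lower too. From day 2 to day 4 18, 14, 14 and 18 of 19 were higher, against 26.7%, 26%, 25.2% and 29.1% of rows. From day 4 to day 6 the counts of higher members were 18, 12, 14 and 5, against 32%, 26.7%, 27.6% and 28%. The Dex libraries thus had most of their increase before day 4, at which they summed to 7.40 and 7.56 FPKM against 4.70 and 5.32 without Dex. The difference between lines in these intermediate steps was not tested.

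Pcdhga12, the last A-type gene, was the leading A or B member of stem cells. It stood at 3.14 and 3.23 FPKM in WT, 2.62 and 2.82 in KO, 2.04 and 2.16 without Dex, and 2.29 and 2.56 with Dex at day 0, where the KO libraries were above and the no-Dex libraries below those with Dex. At day 2 all 8 libraries were between 0.26 and 0.44, and at day 6 between 0.64 and 1.01. Its fall from day 0 to day 6 was -1.15 ± 0.07 (SE, log2) in WT, -0.92 in KO, and -0.87 and -1.01 in the fusion line without and with Dex, with adjusted p-values of at most 2.47e-10. Pcdhga12 passed the filter through its day 0 libraries, so these p-values are descriptive. The difference between KO and WT at day 0, -0.17 with an adjusted p of 0.0404, was lost under most alternatives, including rescaling (adjusted p = 0.065). Without WT day 0 replicate 1 or 2, or KO day 0 replicate 1, the adjusted p was 0.0828, 0.141 and 0.218.

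Pcdhga11, the A-type gene before it, had libraries that did not overlap between lines at day 0. WT had 1.54 FPKM in both libraries, KO 0.82 and 0.94, no Dex 0.19 and 0.34, and Dex 0.44 and 0.46. KO was below WT by 0.43 ± 0.08 (log2 difference -0.43, adjusted p = 0.000217), no Dex below KO by 0.57 (log2 difference -0.57, adjusted p = 9.38e-06), and Dex below WT by 0.81 (log2 difference -0.81, adjusted p = 1.3e-07). Dex against no Dex, at 0.20, was not called (adjusted p = 0.0583). At day 6 KO was the highest, at 1.68 and 1.87 FPKM, followed by WT at 1.23 and 1.33, no Dex at 1.00 and 1.04, and Dex at 0.72 and 0.97. The day 0 to day 6 change was larger in KO than in WT by 0.72 ± 0.12 (adjusted p = 3.08e-05), since WT changed by -0.16 (adjusted p = 0.0918) and KO by 0.56 (adjusted p = 3.64e-06). With rescaling by median-of-ratios factors the WT change was -0.25 and was called (adjusted p = 0.00994). The day 6 difference of KO and WT was 0.28 (adjusted p = 0.00535), lost without KO day 6 replicate 2 (0.23, adjusted p = 0.0576).

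Pcdhga7 and Pcdhga2, of the A type, were the tested members called lower in KO than in WT at day 6. Pcdhga7 held 1.51 and 1.57 FPKM in WT against 0.44 and 0.54 in KO, 0.72 and 0.82 without Dex and 0.66 and 1.05 with Dex. Pcdhga2 held 1.03 and 1.18 against 0.21 and 0.22, 0.33 and 0.38, and 0.40 and 0.59. Pcdhga2 passed the filter only through these WT libraries, and Pcdhga7 would not have passed without its own WT libraries at day 6. Tests of either member that involve WT at day 6 are therefore descriptive. The KO against WT differences were -0.77 ± 0.08 (adjusted p = 1.11e-07) and -0.79 ± 0.06 (adjusted p = 1.63e-09). From day 0 to day 6 Pcdhga2 rose in WT by 0.47 (adjusted p = 1.5e-06) and in KO the change was 0.01 (adjusted p = 0.877), and the 2 changes differed by -0.46 ± 0.09 (adjusted p = 0.00025).

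Pcdhgb6 and Pcdhgb7, of the B type, followed other orders. Pcdhgb6 at day 6 was highest in KO, at 1.14 and 1.5 FPKM against 0.62 and 0.80 in WT, 0.81 and 0.90 without Dex and 0.73 and 0.82 with Dex. KO exceeded WT by 0.44 ± 0.08 (adjusted p = 0.000106), a descriptive test, since Pcdhgb6 passed the filter only through these KO libraries. Pcdhgb7 at day 0 stood at 1.04 and 1.05 FPKM in WT, 0.39 and 0.57 in KO, 0.34 and 0.35 without Dex and 0.73 and 0.92 with Dex. It was thus the tested member called higher with Dex than without at day 0, by 0.44 ± 0.08 (adjusted p = 0.000178), when Pcdhgc4 was called lower by 0.22 ± 0.06 (log2 difference -0.22, adjusted p = 0.00302).

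Taken as a group at day 0, 16 of the 19 gamma A and B members were lower in KO than in WT without overlap and 0 higher, against 25.3% of rows lower. No Dex against KO gave 16 lower (24.1% of rows), Dex against no Dex 8 higher (24.7%), and Dex against WT 18 lower (25.6%). The fit without a filter called 11 of 19 lower in KO against WT (16.1% of rows) and 14 of 19 lower in Dex against WT (16.7%). At day 6 KO against WT gave 13 lower and 4 higher without overlap, against 28.6% and 22.9% of rows, the 4 including Pcdhgb6 and Pcdhga11. Dex against WT gave 16 lower and 0 higher (27.3% and 21.8% of rows). Between the fusion groups, 9 of 19 were lower with Dex at day 2 (28.3% of rows), 14 were higher at day 4 (19.4%), and 6 lower and 3 higher at day 6 (19.3% and 21.4%).

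In stem cells much of the A and B level came from the end of the cluster. The last 4 of the 19 members in genomic order, Pcdhgb7, Pcdhga11, Pcdhgb8 and Pcdhga12, held 55.2% of the A and B sum in WT at day 0, 61.6% in KO, and 66.4% and 70.0% in the fusion line without and with Dex. At day 6 they held 26.6%, 41.2%, 27.3% and 27.5%. Over the 19 members the rank correlation of start position with group mean at day 0 was 0.39, 0.39, 0.32 and 0.34 in the 4 lines, and 0.09, 0.47, 0.18 and 0.16 at day 6, values that describe members sharing libraries and constant exons. Pcdhgb8, annotated as a polymorphic pseudogene, had 0.90 and 1.22 FPKM in WT at day 0. Pcdhga1, the first of the cluster, had 0.86 and 1.00 in the same libraries, so the order along the cluster was not a steady one. At day 6 Pcdhga1 was at 0.36 and 0.39 in WT and at 0.01 to 0.03 in KO.

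**Figure D5:**
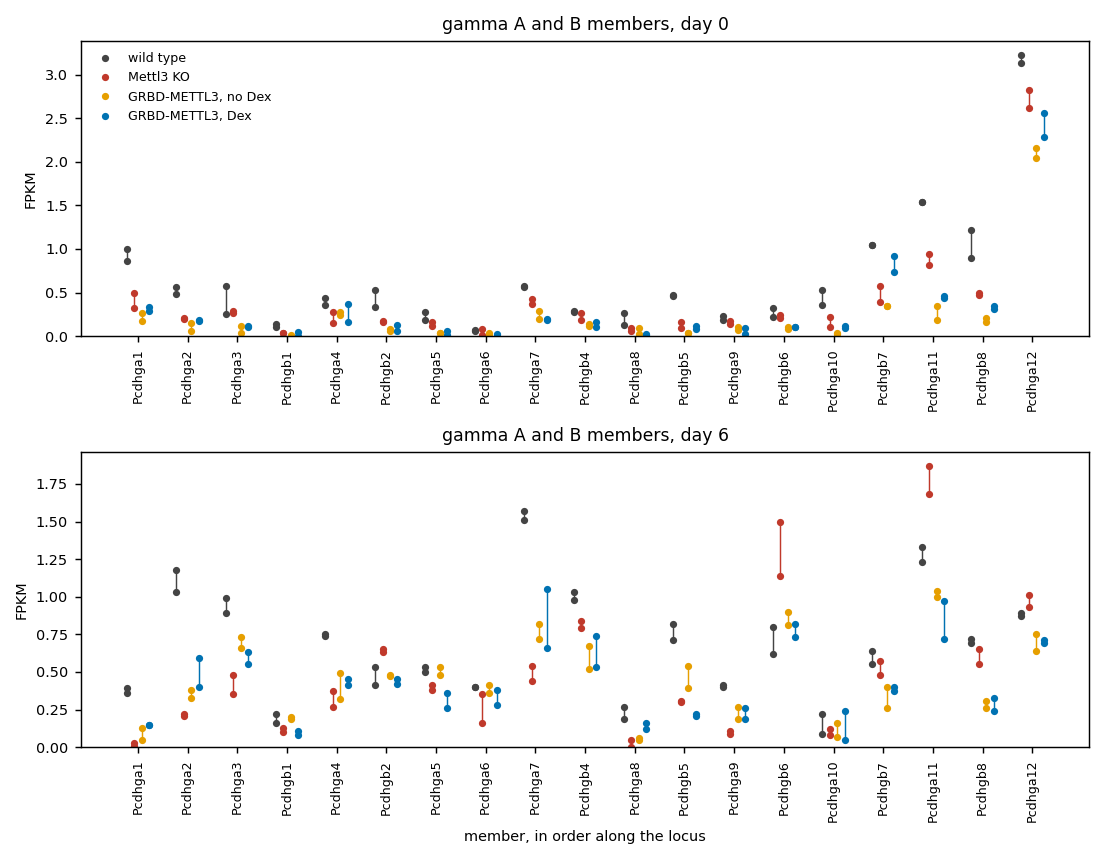
FPKM of the 19 gamma A and B members in genomic order at day 0 (top) and day 6 (bottom), with both libraries of each line joined by a bar. At day 0 the WT points lie highest for most members and Pcdhga12 leads, and at day 6 the levels are spread over the cluster.

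Counts over the 10 tested members sit beside the share of all 16276 tested rows that was called. In KO against WT, 6, 3, 7 and 8 of the 10 were called at days 0, 2, 4 and 6, against 48.2%, 58.9%, 60.5% and 65.1% of rows. Without WT day 4 replicate 1 the day 4 count was 4. At day 0, 1 was higher (Pcdhgc4) and 5 lower, against 18.4% and 29.8% of rows. At day 6, 6 were higher and 2 lower (Pcdhga2 and Pcdhga7), against 30.9% and 34.2% of rows. At day 2 the 3 higher members were Pcdhga11, Pcdhgc3 and Pcdhgc4. Differences there were 0.33 ± 0.08 (adjusted p = 0.0021), 0.66 ± 0.08 (adjusted p = 9.93e-07) and 0.73 ± 0.06 (adjusted p = 1.11e-09).

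No Dex against KO gave 4, 1, 2 and 10 calls at the 4 days, against 49.1%, 37%, 26.7% and 49% of rows. At day 6 all 10 tested members were called, 4 higher and 6 lower, but 6 of the 10 with only the compared groups fitted, and 5 without KO day 6 replicate 1. At day 2 the count was 2 without KO replicate 1 or no-Dex replicate 2. At day 4 it was 0 without KO replicate 1 or no-Dex replicate 2, and 1 without no-Dex replicate 1. By limma at an unadjusted p under 0.05, 2 members passed in each of the fits with 0. Dex against no Dex gave 2, 3, 3 and 2 calls (43.4%, 44.3%, 40.2% and 42.7% of rows), the day 2 count being 1 without replicate 1 of either group. At day 6 these were Pcdhgc4 higher and Pcdhac2 lower.

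Dex against WT gave 7, 1, 6 and 7 calls of 10, against 49.8%, 29.4%, 44.7% and 61.4% of rows, with 4 at day 6 without Dex day 6 replicate 2. At day 4 all 6 were higher, led by Pcdhgc3 at 1.06 ± 0.08 (adjusted p = 3.76e-09), and 11 of 19 gamma A and B members were higher without overlap (22.6% of rows). Day 6 against day 0 gave 8, 7, 9 and 10 calls in WT, KO, no Dex and Dex, against 78.1%, 80.4%, 81.9% and 80.4%. An interaction of line and time was called for all 10 tested members in KO against WT (56.9% of rows) and for 4 in Dex against no Dex (48.7%), or 2 without no-Dex day 6 replicate 1. Pcdhac2, Pcdhgb6, Pcdhga2, Pcdhga7 and Pcdhgb7 would not have passed the filter without a group of the KO and WT interaction. Where shares of members are near those of all rows, they say nothing particular about the family. For day 6 against day 0, rescaling by median-of-ratios factors moved the median of all tested rows from 0.09 to -0.03 in WT, 0.09 to -0.01 in KO, 0.17 to -0.03 without Dex and 0.14 to -0.01 with Dex on the log2 scale.

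Genes known to act on the locus were listed apart from the members. Of 18 chromatin regulators, among them CTCF, cohesin subunits and DNA methyltransferases, 3 were higher and 10 lower in KO against WT at day 6, against 30.9% and 34.2% of all tested rows, with a median log2 difference of -0.21 beside -0.03 over those rows. Dnmt3b, a de novo DNA methyltransferase, differed by -1.11 ± 0.03 (adjusted p = 7.86e-18), and Setdb1, a histone methyltransferase of the repressive mark H3K9me3, by 0.54 ± 0.03 (adjusted p = 6.4e-13). At day 0 the counts were 1 higher and 11 lower, against 18.4% and 29.8% of rows, with Dnmt3b at -0.90 ± 0.03 (adjusted p = 4.59e-15). In Dex against no Dex at day 6, 2 of 18 were higher and 12 lower, against 23.8% and 19% of rows (median -0.15), with Ctcf at -0.34 ± 0.03 (adjusted p = 3.94e-09).

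Partners and processing genes of the protocadherins numbered 15, of which 14 were tested. They were 5 higher and 6 lower in KO against WT at day 6, near the 30.9% and 34.2% of all rows, and 11 higher and 2 lower at day 6 against day 0 in WT, where 43.6% and 34.5% of rows were. Among 12 non-clustered protocadherins, whose genes lie elsewhere, 8 were tested, and 7 were higher at day 6 than at day 0 in each line, against 43.6%, 45%, 48% and 46.4% of rows in WT, KO, no Dex and Dex. In KO against WT at day 6, 5 were higher and 1 lower, with Pcdh18 at 1.96 ± 0.07 (adjusted p = 2.16e-15) and Pcdh8 at 1.86 ± 0.08 (adjusted p = 6.05e-14). Of 8 classical cadherins 7 were tested, and 2 were higher and 4 lower in the same comparison.

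Genes bordering or lying between the clusters were listed as well. Taf7, a transcription factor subunit gene between the beta and gamma clusters, had 21.1 and 21.9 FPKM in WT and 31.7 and 32.3 in KO at day 6, beside 39.8 and 40.6, and 43.4 and 43.9, at day 0. Diaph1, a formin gene past the gamma cluster, fell from 26.2 and 26.3 to 10.8 and 10.98 in WT between those days (log2 change -1.20 ± 0.03, adjusted p = 4.12e-19). Of 13 neighbours 12 were tested, and 5 were higher and 5 lower at day 6 than at day 0 in WT, near the 43.6% and 34.5% of all rows.

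Markers of cell types also differed between the lines at day 6. The 10 neuron markers summed to 58.8 and 61.5 FPKM in WT, 367 and 372 in KO, 306 and 307 without Dex, and 190.3 and 190.5 with Dex, with none at 0 in both libraries of a group. Their sum was as high in stem cells, between 307 and 348 FPKM in the 8 day 0 libraries, where the alpha sum was 0.19 or less. Tubb3, a tubulin gene, and Stmn2, a stathmin gene, made up most of it there, at 152 and 160, and 176 and 180 FPKM in WT. The 5 neural crest markers summed to 3.35 and 3.52, 48.0 and 48.1, 50.4 and 51.5, and 20.7 and 22.4 in the same order. At day 6 both lists had the lowest sum in WT and the next in Dex, as the alpha cluster did, and so did the 6 mesenchyme markers, at 13.8 and 14.5, 30.5 and 31.6, 28.6 and 29.3, and 24.3 and 25.7. The 6 neural progenitor markers did too, at 397 and 407 in WT, 696 and 699 in KO, 658 and 669 without Dex, and 634 and 643 with Dex. Their sum was between 13.5 and 24.9 in the day 0 libraries. The 6 eye field markers had another order, at 556 and 587 in WT, 217.7 and 217.8 in KO, 85.6 and 86.1 without Dex and 334 and 340.4 with Dex. The 7 extraembryonic endoderm markers summed to 69.7 and 70.0 in WT and 8.69 to 11.9 elsewhere, with Afp at 0 in KO, no Dex and Dex, and the 8 pluripotency markers to 226 and 237 in WT and 59.1 to 84.7 elsewhere. The part of cell composition in the members' differences was not tested.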

How the data were processed

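The authors deposited 1 table of FPKM per gene for 32 libraries, in 16 groups of 2. STAR, Cuffdiff and mm10 are named per the submitters' processing notes, while versions, strand setting and the treatment of fragments from shared exons are not given in the sources used here. FPKM are not counts, so limma 3.58.1 (R 4.3.3) was fitted to log2(FPKM + 1) over all 32 libraries and 16 groups with 16 residual degrees of freedom, on 16276 rows with at least 1 FPKM in at least 2 libraries. The 22 comparisons were each adjusted by Benjamini-Hochberg over all tested rows, two-sided at 0.05, after a test on simulated data. Depth was estimated from steps between low FPKM values: per library, of 1202 to 1699 values, 82.0% to 91.9% were whole numbers of fragments to a tolerance of 0.2 (40% if evenly spread), and the floor of 3 fragments covers counting error only. Positions and exons came from GENCODE M21 on GRCm38. The members and the gene lists were chosen with earlier results of these data known. Members were named where a group mean reached 1 FPKM (up to 5 per cluster), where they are C-type, or where they had the 3 largest called changes without overlap in a comparison. Other beta, alpha and gamma members were chosen as examples after their values were seen, as were the listed genes beyond the largest called changes. Alternatives were a pseudocount of 0.1, no filter, median-of-ratios rescaling, only the compared groups, a replicate block, and leaving out each library.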

Additional observations from a re-analysis of the deposited data

Results flagged for a closer look

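Limma's interaction term for KO against WT, on the log2(FPKM + 1) scale, was called in 56.9% of all tested rows. For each of the 10 tested members it called a different change over the 6 days in KO than in WT. It was larger in KO for Pcdhac2 by 1.07 ± 0.10 (SE, adjusted p = 3.05e-08), Pcdhga11 by 0.72 ± 0.12 (adjusted p = 3.08e-05) and Pcdhgc3 by 0.65 ± 0.12 (adjusted p = 8.47e-05). Smaller differences in the same direction were 0.49 for Pcdhgb6, 0.40 for Pcdhgb7, 0.38 for Pcdhb22, 0.26 for Pcdhgc4 and 0.24 for Pcdhga12, with adjusted p-values from 0.00136 to 0.0371. Pcdhga7 and Pcdhga2 differed the other way, by -0.60 ± 0.12 (adjusted p = 0.000219) and -0.46 ± 0.09 (adjusted p = 0.00025). Pcdhac2, Pcdhgb6, Pcdhga2, Pcdhga7 and Pcdhgb7 would not have passed the filter without 1 of the 4 groups in this contrast. Their p-values here are descriptive. The call of Pcdhb22 was lost without WT day 6 replicate 2 (adjusted p = 0.052) and with a pseudocount of 0.1 (adjusted p = 0.405), and that of Pcdhgc4 without WT day 0 replicate 2 (adjusted p = 0.052). Pcdhgb7 lost its call with a pseudocount of 0.1 (adjusted p = 0.0783). Pcdhga12 lost it with that pseudocount (adjusted p = 0.18), without a filter (0.0752), with only the compared groups (0.0529), and without any one of the 4 WT libraries or replicate 1 of KO at day 0 or day 6 (0.0537 to 0.123).

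Between Dex and no Dex the same interaction was called for 4 of the 10, beside 48.7% of all tested rows. Pcdhgc4 changed more with Dex, by 0.63 ± 0.08 (adjusted p = 1.71e-06). Pcdhac2 differed by -0.60 ± 0.10 (adjusted p = 6.75e-05), Pcdhgb7 by -0.38 ± 0.11 (adjusted p = 0.00947) and Pcdhga11 by -0.33 ± 0.12 (adjusted p = 0.0237). The Pcdhgb7 call was lost with a pseudocount of 0.1 (adjusted p = 0.0844), without no-Dex day 6 replicate 1 (0.0546) and without Dex day 0 replicate 1 (0.0554). That of Pcdhga11 was lost with only the compared groups (adjusted p = 0.0821) and without replicate 1 of no Dex at day 0 or day 6, or replicate 2 of Dex at day 0 or day 6 (0.0581 to 0.135).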

How the results depend on the processing

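Rescaling by median-of-ratios factors kept each of the 22 counts of called members within 1.5 times, and no call of a member changed sign under any alternative run. Without a filter, 58 rather than 10 members were tested. KO libraries then gave 13, 5, 12 and 37 member calls relative to WT over days 0, 2, 4 and 6, with 25.3%, 30.6%, 30.8% and 36.4% of all rows called. The untreated fusion line relative to KO gave 8 on day 0 and 34 on day 6 (24.4% and 25.2% of rows), and Dex treatment relative to none gave 6 on day 4 and 14 on day 6 (18.5% and 21.5%). Dex-treated relative to WT libraries gave 16, 2, 11 and 27 (26.2%, 12.8%, 21.1% and 33.2%). Between the first and last day 37 members were called in WT, 42 in KO, 44 in the untreated and 42 in the treated fusion line, with 47.8% of rows called in WT and 48.1% in each of the others. The interactions numbered 29 (KO, WT) and 14 (the fusion groups), beside 30.4% and 23.8% of rows.

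A pseudocount of 0.1 called 5 members on day 2 for KO relative to WT. For the untreated fusion line relative to KO it called 3 on day 2, 1 on day 4 and 6 on day 6. Fits of only the compared groups, with fewer samples, called 0 on day 4 and 6 on day 6 in that comparison, and 0 on day 2 and 3 on day 4 for Dex-treated relative to WT libraries. In both limma fits with 0 calls, 2 members had an unadjusted p under 0.05.

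Replicate numbers did not pair the libraries: the correlation of duplicate differences over 120 pairs of groups was between -0.09 and 0.13. A replicate block gave 2 calls on day 2 for the untreated fusion line relative to KO, and the other 21 counts stayed within 1.5 times.

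Leaving out each library in turn gave 5 to 6, 3 to 4, 4 to 6 and 6 to 8 calls over the days for KO relative to WT. The ranges were 3 to 4, 1 to 2, 0 to 2 and 5 to 8 for the untreated fusion line relative to KO. Dex treatment relative to none gave 2 to 3, 1 to 2, 3 to 3 and 2 to 3, and Dex-treated relative to WT 6 to 7, 1 to 1, 5 to 7 and 4 to 6. First against last day stayed at 8, 7, 9 and 10 calls, and the interactions ran from 8 to 10 and from 2 to 5. The 2 day 4 fits with 0 calls each had 2 members at an unadjusted p under 0.05. The cause was not tested. At the estimated depth, 3 fragments on Pcdhb11 are worth 0.013 to 0.026 FPKM, so lower values of that gene cannot be told from 0.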
